A study of Mus musculus with 12 samples.

Results

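The genes described here are a set of 40 mouse imprinted genes, chosen by name, and their expression in sorted cells of MLL-AF9 leukaemias. For 36 of the 40 the array carried a probe set that was annotated to that symbol alone, out of 22180 genes named in this way. H19, Snrpn and Mirg were on the array only through probe sets that carried several symbols, and Zrsr1 was not analysed here. Where a gene had more than 1 such probe set, the brightest of them over the 12 arrays was used.

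An imprinted gene is expressed mainly from the copy inherited from one parent. At many imprinted genes, though not at all, the choice is set by DNA methylation laid down in the germ line at an imprinting control region. This methylation is kept through every cell division by the maintenance methyltransferase and its partners. In the early embryo it is protected by zinc finger proteins such as ZFP57. Many imprinted genes act on growth, and many lie in clusters governed by a control region that is methylated on a single parental copy. In some clusters a long noncoding RNA silences neighbours on the same chromosome. The arrays measured total RNA of a gene and do not tell the parental copies apart.

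All leukaemias carried the oncogene MLL-AF9, a fusion of the histone methyltransferase MLL with AF9 that causes acute myeloid leukaemia. Leukaemias 73, 75 and 79 were labelled WT for Dnmt3b, a de novo DNA methyltransferase, and leukaemias 81, 83 and 85 were labelled Dnmt3b-knockin, with overexpression of Dnmt3b named in their titles. Each leukaemia was sorted by c-kit, a receptor tyrosine kinase carried by immature blood cells, and gave an array of the positive and an array of the negative fraction. This gave 12 arrays in 4 groups of 3. The promoter that drives the knock-in allele, the age and strain of the mice, and whether the numbered leukaemias arose in different mice are not given in the sources used here, so that p-values measure the spread between these leukaemias. Titles name bone marrow and the source field names leukaemic spleen, and this was not resolved.

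Kit RNA was 2.65-fold higher in the c-kit-positive fraction (limma, adjusted p = 1.05e-05). On the probe set used here, Dnmt3b RNA did not follow its label. Whether that probe set reads RNA of the knock-in allele was not tested. The difference between leukaemias labelled knock-in and wild type was 0.03 on the log2 scale (95% interval -0.18 to 0.25; limma, adjusted p = 0.970), and the words "labelled knock-in" are used throughout for that reason. Leukaemia 81 stood apart in Xist, the noncoding RNA that coats an inactive X, with log2 values of 6.27 to 6.30 against 9.83 to 11.7 on the other arrays. All 12 marker genes of late neutrophils lay above the table median, as did all 12 of myeloid blood cells and 6 of 7 of progenitors. Also above it were 4 of 5 megakaryocyte, 4 of 6 erythroid, 4 of 9 macrophage and 5 of 10 stromal markers. The counts were 2 of 8 for endothelial, 2 of 6 for B-cell and 3 of 8 for T- and NK-cell markers, against 56.4% of all genes.

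The start regions of 4 members are shown first. Cd81 and Kcnq1ot1 are the 2 members called between the c-kit fractions. Igf2r and Nnat are shown as examples of members whose leukaemia means did not overlap between the genotype labels, although neither was called. Impact and Cdkn1c had that trait too and are named only. Each window spans 250 bases before to 50 bases after a RefSeq transcript start in GRCm38.p6 and is written 5′ to 3′ on the strand of the gene. Capitals mark CG dinucleotides, the sites of DNA methylation in mammals. The windows are chr7:143052500-143052799 on the plus strand for Cd81, chr7:143296498-143296797 on the minus strand for Kcnq1ot1, chr17:12769657-12769956 on the minus strand for Igf2r and chr2:157559828-157560127 on the plus strand for Nnat.
Cd81: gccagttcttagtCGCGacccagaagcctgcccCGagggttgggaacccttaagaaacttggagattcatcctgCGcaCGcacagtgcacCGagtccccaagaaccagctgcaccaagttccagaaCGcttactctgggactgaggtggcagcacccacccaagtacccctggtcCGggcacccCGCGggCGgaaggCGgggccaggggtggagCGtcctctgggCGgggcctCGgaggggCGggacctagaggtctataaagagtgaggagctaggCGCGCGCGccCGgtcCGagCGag
Kcnq1ot1: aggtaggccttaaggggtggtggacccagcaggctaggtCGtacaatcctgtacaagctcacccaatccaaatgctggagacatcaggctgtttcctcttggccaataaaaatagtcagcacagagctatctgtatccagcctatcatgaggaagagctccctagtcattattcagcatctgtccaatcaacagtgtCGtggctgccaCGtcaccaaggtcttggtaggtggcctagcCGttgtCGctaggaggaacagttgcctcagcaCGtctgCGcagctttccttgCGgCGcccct
Igf2r: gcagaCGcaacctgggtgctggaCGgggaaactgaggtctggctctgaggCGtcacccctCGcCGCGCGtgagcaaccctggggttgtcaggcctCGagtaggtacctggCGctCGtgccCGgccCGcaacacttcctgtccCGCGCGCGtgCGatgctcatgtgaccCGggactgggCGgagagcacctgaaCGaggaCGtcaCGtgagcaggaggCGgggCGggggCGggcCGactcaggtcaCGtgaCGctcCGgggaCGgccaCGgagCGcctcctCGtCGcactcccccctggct
Nnat: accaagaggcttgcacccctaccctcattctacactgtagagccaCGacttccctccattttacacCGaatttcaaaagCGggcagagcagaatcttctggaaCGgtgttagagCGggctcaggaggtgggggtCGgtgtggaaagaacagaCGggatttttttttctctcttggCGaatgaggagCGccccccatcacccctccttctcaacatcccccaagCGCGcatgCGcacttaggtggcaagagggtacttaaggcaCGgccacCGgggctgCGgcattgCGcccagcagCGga

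The window of Igf2r held 34 CG dinucleotides, that of Cd81 held 23, that of Nnat 17 and that of Kcnq1ot1 9. RefSeq windows were found for 33 of the 40 members, 51 windows in all, and their median was 13 CG dinucleotides, against 7 over all 32851 windows of the table. Members ranged from 0 in Rian to 48 in a window of Ppp1r9a. The hexamer TGCCGC, the core that ZFP57 binds when its CG is methylated, or its other strand GCGGCA, was present in 10 of the 51 windows, from 9 members, and in 11.6% of all windows. Nnat was among the 9, and Cd81, Kcnq1ot1 and Igf2r were not. By gene, 9 of the 33 members with a window held the hexamer, against 13.1% of all genes with a window. Windows of a gene can overlap, as for Mest, and then can share a site. The hexamer holds a CG, and the shares were not compared at matched CG count. Methylation was not measured on these arrays, and a match is a match of letters only.

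Of the 36 members, 15 had a mean over the 12 arrays above the table median of log2 5.63, which is the median over all 41345 probe sets and is not a detection limit. Over all 22180 genes, 12501 lay above it. The share was 15 of 36 among members and 56.4% among all genes. A probe set's level also depends on its probes, so the order below ranks signals and not transcript numbers.

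At the top stood Cd81, a tetraspanin of the cell surface, at 9.81, and Nap1l4, a histone chaperone, at 8.71. Both lie at the edges of the Kcnq1 cluster of chromosome 7. A wide gap separated them from the next, which were Impact, a regulator of the GCN2 translation control kinase, at 6.78, the retrotransposon-derived Peg10 at 6.63, the ubiquitin ligase Ube3a at 6.63 and the small membrane protein gene Nnat at 6.59. The silencing RNA Kcnq1ot1 was at 6.46, the receptor Igf2r, which removes the growth factor IGF2, at 6.37, and the zinc finger gene Peg3 at 6.27. Cdkn1c, which encodes the cyclin-dependent kinase inhibitor p57, was at 6.06, beside the transporter Slc22a18 at 6.04 and the stimulatory G protein subunit Gnas at 5.99. The noncoding RNA Meg3 at 5.83, the RING finger gene Mkrn3 at 5.81 and Peg12 at 5.70 stood just inside the line, and the potassium channel Kcnq1 at 5.60 and neurabin, Ppp1r9a, at 5.53 just outside it. Neighbours in this order from Impact to Igf2r differed by less than their ranges over the arrays.

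The lower 21 members included several genes known for their part in fetal and placental growth. The growth factor Igf2 was at 5.22, the adaptor Grb10, which restrains growth factor receptors, at 5.28, the Notch-like ligand gene Dlk1 at 5.02, the zinc finger gene Plagl1 at 4.72, Mest at 4.44 and Phlda2, which limits placental growth, at 3.57, the lowest of all. On the single arrays, 10 members were above the table median on all 12 arrays and 18 were below it on all 12. None of the noncoding Rian, the Polycomb-related Sfmbt2, the sarcoglycan Sgce or the zinc finger gene Zim1 reached the line on any array.

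**Figure D1:**
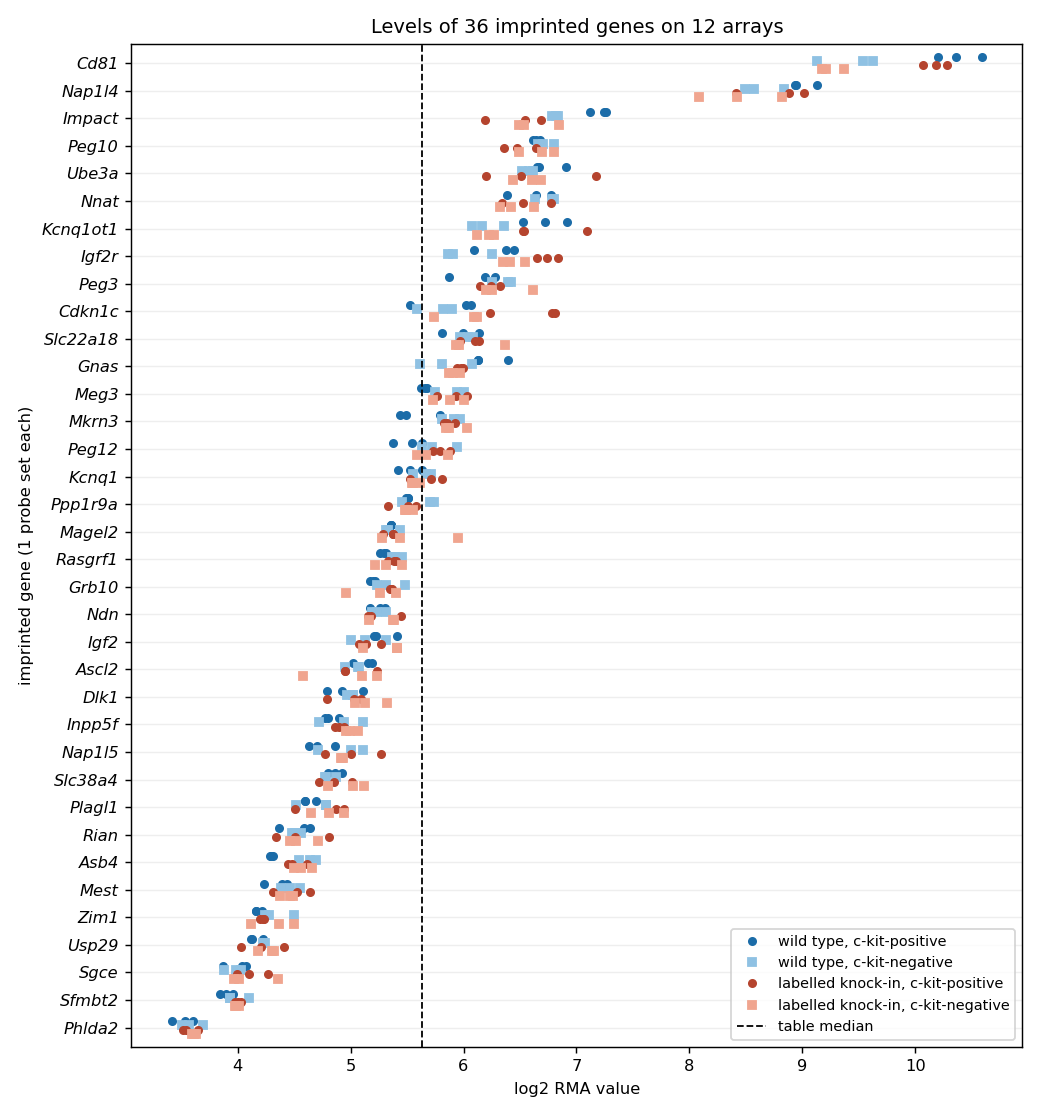
Log2 RMA value of the 36 measured imprinted genes on each of the 12 arrays, ordered by mean, with circles for c-kit-positive and squares for c-kit-negative arrays and the table median as a dashed line. Cd81 and Nap1l4 stand to the right of all other members, and 15 members have their mean to the right of the line at 5.63.

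The median range of the members over the 12 arrays was 0.48 log2 units, against 0.56 over all genes, and 5 members had a range of at least 1. These were Cd81, Cdkn1c, Impact, Nap1l4 and Kcnq1ot1, 4 of them in the Kcnq1 cluster. The widest range was that of Cd81, at 1.46.

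The first comparison asked how the c-kit-positive fraction differed from the c-kit-negative fraction. Over both genotypes 2 of the 36 members passed an adjusted p of 0.05, Cd81 and Kcnq1ot1, and both were higher in c-kit-positive cells. The background was 6.75% of all genes tested. At an unadjusted p under 0.05 there were 8 members, against 21.5% of all genes. The median difference over the members was -0.03 on the log2 scale and over all genes -0.04, with 12 members positive and 24 negative. Of all genes, 8790 were positive and 13390 negative.

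Cd81 read 10.37, 10.59 and 10.20 on the c-kit-positive and 9.13, 9.54 and 9.63 on the c-kit-negative arrays of wild-type leukaemias 73, 75 and 79. In leukaemias 81, 83 and 85 it read 10.28, 10.07 and 10.19 in c-kit-positive and 9.37, 9.17 and 9.21 in c-kit-negative cells. Every c-kit-positive array lay above every c-kit-negative array. The c-kit-positive level of the gene was 1.92-fold that of c-kit-negative cells, a log2 difference of 0.94 (SE 0.10; limma, adjusted p = 0.000203). The difference was 0.96 in wild type (limma, adjusted p = 0.00907) and 0.93 in leukaemias labelled knock-in (limma, adjusted p = 0.0051). The background of these 2 tests was 0.537% and 1.5% of all genes, and Cd81 was the member called in each. CD81 is a partner of integrins and of the B-cell coreceptor, and its gene lies toward the Ascl2 side of the Kcnq1 cluster. The call within wild type was lost without leukaemia 73 (limma, adjusted p = 0.141) or 75 (0.134), and the call within the labelled knock-in without leukaemia 83 (0.0852), with differences of 0.82, 0.91 and 0.95. Over both genotypes it held under every alternative that was run.

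Kcnq1ot1, the long noncoding RNA that starts within Kcnq1 on the opposite strand and silences the cluster on the paternal chromosome, read 6.52, 6.72 and 6.92 in c-kit-positive cells of leukaemias 73, 75 and 79 and 6.16, 6.07 and 6.36 in their c-kit-negative cells. In leukaemias 81, 83 and 85 the values were 7.09, 6.53 and 6.54 in c-kit-positive and 6.23, 6.27 and 6.12 in c-kit-negative cells. The fractions did not overlap, and the c-kit-positive array of leukaemia 81 was the highest. The log2 difference was 0.52 (SE 0.11), or 1.43-fold (limma, adjusted p = 0.0133). Within wild type it was 0.52 and within the labelled knock-in 0.51, and neither passed alone (limma, adjusted p = 0.139 and 0.142), although the wild-type difference passed when leukaemia 81 was left out of the shared fit (adjusted p = 0.0412). The labelled knock-in difference was 0.33 without leukaemia 81 (limma, adjusted p = 0.32). The call over both genotypes was lost without leukaemia 73 (limma, adjusted p = 0.0505) or 75 (0.0956), at differences of 0.56 and 0.49.

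Both fractions came from the same leukaemia, and the fit with the leukaemia as a replicate block called more members. Over both genotypes it called 5, adding Nap1l4 (limma, adjusted p = 0.00322), Gnas (0.0341) and Igf2r (0.0397), all higher in c-kit-positive cells. The background rose to 16.7% of all genes. Within wild type the block gave 7 calls, against 8.99% of all genes: Cd81, Kcnq1ot1, Nap1l4, Gnas and Impact were higher in c-kit-positive cells, and Asb4 and Mkrn3 were lower. Within the labelled knock-in it gave 3 calls, against 7.25%, namely Cd81, Kcnq1ot1 and Cdkn1c, all higher.

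Nap1l4 was higher in the c-kit-positive fraction of every leukaemia, by 0.37, 0.44 and 0.29 in leukaemias 73, 75 and 79 and by 0.20, 0.46 and 0.33 in 81, 83 and 85. The leukaemias themselves lay further apart than their fractions, with Nap1l4 means from 8.25 in 85 to 8.99 in 79, and without the block the difference of 0.35 did not pass (limma, adjusted p = 0.14). Gnas, whose locus also makes several imprinted transcripts from other starts that this probe set may read, differed by 0.32, 0.51 and 0.32 in the wild-type leukaemias. In the leukaemias labelled knock-in the Gnas differences were 0.02, 0.10 and 0.04, smaller than each of the wild-type ones, and the interaction did not pass (limma, unadjusted p = 0.0713, adjusted p = 1.0).

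Counted over leukaemias, 4 members were higher in c-kit-positive cells in 6 of 6, Cd81, Kcnq1ot1, Nap1l4 and Gnas, against 11.3% of all genes. In 6 of 6 leukaemias 3 were lower, Peg3, Peg10 and Asb4, against 8.58%. Asb4, a SOCS box protein gene of the Peg10 cluster, read 4.31, 4.29 and 4.29 in c-kit-positive cells of leukaemias 73, 75 and 79. Their c-kit-negative cells read 4.69, 4.54 and 4.64. In leukaemias 81, 83 and 85 the c-kit-positive values were 4.44, 4.48 and 4.62, and the c-kit-negative values 4.50, 4.56 and 4.66. The fractions were apart in wild type and overlapped in the labelled knock-in, and all 12 values lay below the table median. The difference was -0.33 in wild type (limma, adjusted p = 0.113, and 0.0374 with the block) and -0.06 in the labelled knock-in.

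**Figure D2:**
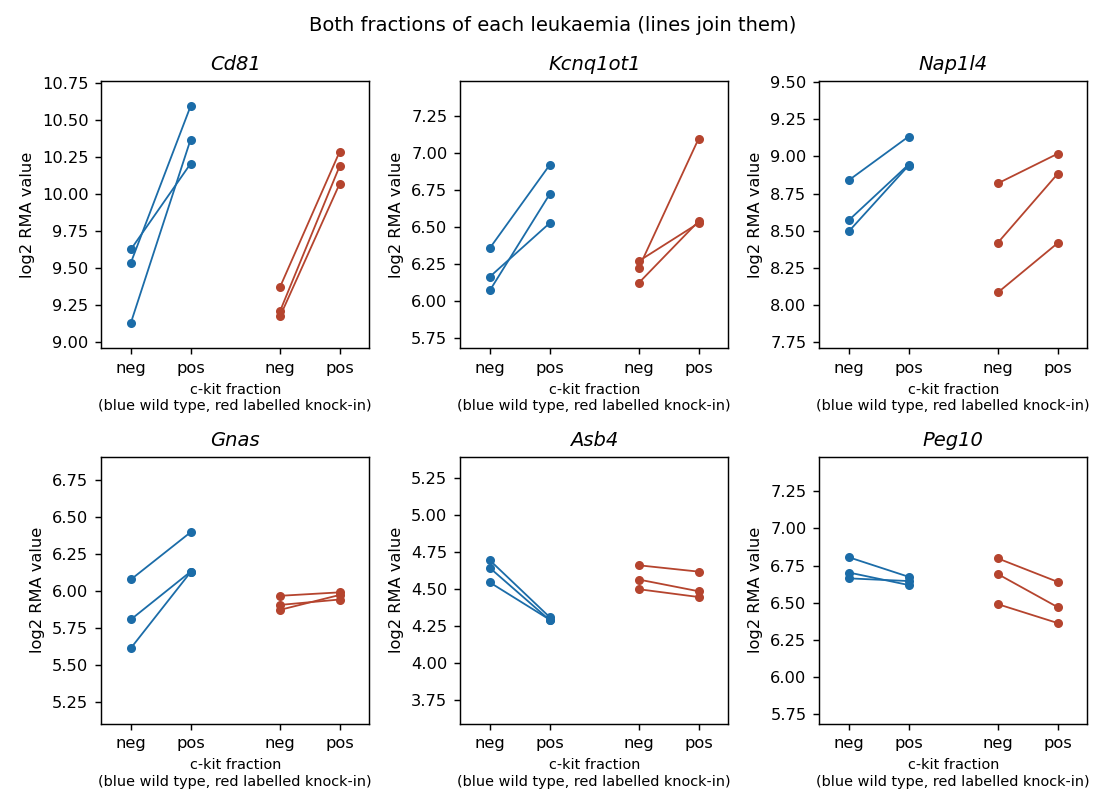
Log2 RMA values of 6 members in the c-kit-negative (neg) and c-kit-positive (pos) fraction, with a line joining both fractions of each leukaemia, blue for wild type and red for labelled knock-in. All 6 lines rise for Cd81, Kcnq1ot1, Nap1l4 and Gnas and all 6 fall for Asb4 and Peg10. All panels span the same number of log2 units.

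The Kcnq1 cluster held 8 of the measured members, more than any other cluster of the set. They had a median difference of 0.22, with 5 of 8 positive, against -0.03 over all 36 members, these 8 included. Of the 8, 5 lay above the table median. The 15 members above it had a median difference of 0.11, with 8 positive. In chromosome order, Ascl2, a transcription factor of the trophoblast, differed by 0.08 and Cd81 by 0.94. Between them lies Tspan32, another tetraspanin gene from a list of other imprinted genes and neighbours, which differed by 0.64 (limma, adjusted p = 0.0219) and was higher in 6 of 6 leukaemias. Kcnq1 itself differed by -0.0044 (95% interval -0.16 to 0.15), while Kcnq1ot1 inside it differed by 0.52. Farther along, Cdkn1c differed by 0.36, Slc22a18 by -0.04, Phlda2 by -0.06 and Nap1l4 by 0.35. Of the called members, Cd81 thus lay outside Kcnq1 and Kcnq1ot1 started within it, and the interval of Kcnq1 included 0. Cdkn1c and Nap1l4 were not called without the block (limma, adjusted p = 0.122 and 0.14), and the intervals of Slc22a18 and Phlda2 between them included 0. The other neighbours, Tssc4, Trpm5, Osbpl5 and Dhcr7, differed by 0.02, -0.05, -0.06 and 0.18 and were not called. The other clusters had small medians, -0.13 over the 3 members of the Peg3 cluster, -0.11 over the 3 of Dlk1-Meg3, -0.10 over the 4 of Peg10 and -0.08 over the 5 of Snrpn.

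**Figure D3:**
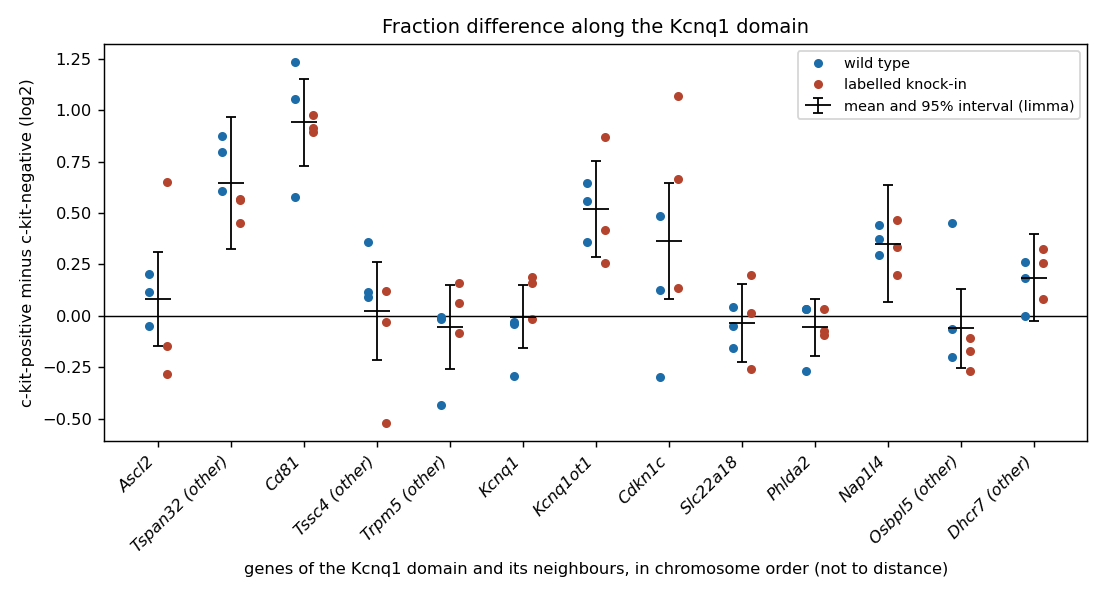
Log2 difference between c-kit-positive and c-kit-negative cells for 13 genes of the Kcnq1 cluster and its neighbours in chromosome order, with a point for each leukaemia and the mean with its 95% interval from limma. Genes marked as other are not among the 36 members. Tspan32, Cd81, Kcnq1ot1 and Nap1l4 have all points and the whole interval above 0, and the interval of Kcnq1 includes 0.

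Markers of several blood cell types differed between the fractions as well. Of 12 late neutrophil markers, 7 fell in c-kit-positive cells and the median difference of the list was -0.91. The log2 of the list's summed level was 12.03 to 13.22 on wild-type c-kit-positive and 13.12 to 13.82 on wild-type c-kit-negative arrays, and 13.57 to 13.91 and 14.04 to 14.35 in the labelled knock-in. Of 12 general myeloid markers, 4 rose and 4 fell in c-kit-positive cells, and of 7 progenitor markers, Kit among them, 2 rose. The calls were 1 of 9 macrophage markers, which was lower, and 1 of 6 erythroid markers, which was higher. Of the megakaryocyte, B-cell and T- and NK-cell markers 0 were called. The share called was 6.75% of all genes, and 1361 of the 12501 genes above the table median. The part of these cells in the differences of Cd81, Kcnq1ot1 and the other members was not tested. In bulk samples, fewer cells of a type and less RNA per cell cannot be told apart. Of the 10 stromal and 8 endothelial markers, 0 were called in any of the 7 comparisons by limma.

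The second comparison asked how leukaemias labelled knock-in differed from wild type. Over both fractions limma called 0 of the 36 members at an adjusted p of 0.05, against 0.018% of all genes. At an unadjusted p under 0.05 there were 3 members, against 7.84% of all genes: Igf2r and Cdkn1c, which were higher in the labelled knock-in, and Impact, which was lower. In c-kit-positive cells alone the calls were 0, against 0.108%, with 7 members at an unadjusted p under 0.05, against 9.21%. In c-kit-negative cells they were again 0, against 0.0451%, with 1 member at an unadjusted p under 0.05, against 5.92%. The median difference over both fractions was 0.04 for the members and 0.01 for all genes, with 27 members positive and 9 negative. Of all genes, 12216 were positive and 9964 negative. With the leukaemia as a random replicate block 0 members were called in these comparisons, against 0.158%, 0.104% and 0.0541% of all genes.

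Igf2r had the smallest p among the members over both fractions. It read 6.44, 6.09 and 6.38 in c-kit-positive cells of leukaemias 73, 75 and 79 and 6.84, 6.74 and 6.65 in those of 81, 83 and 85. In c-kit-negative cells it read 5.91, 6.25 and 5.86 in wild type and 6.54, 6.42 and 6.35 in the labelled knock-in. The labelled knock-in arrays were above all wild-type arrays within each fraction. The leukaemia means were 6.18, 6.17 and 6.12 against 6.69, 6.58 and 6.50, a log2 difference of 0.43 or 1.35-fold (SE 0.08; limma, unadjusted p = 0.00064, adjusted p = 0.239). The difference was 0.44 in c-kit-positive and 0.43 in c-kit-negative cells. By fraction, Igf2r was higher in c-kit-positive cells in 5 of 6 leukaemias, with leukaemia 75 the exception. That difference, 0.30 over all leukaemias (limma, adjusted p = 0.0612), was 0.42 and passed without leukaemia 75 (adjusted p = 0.0254).

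Cdkn1c, whose product halts the cell cycle and keeps blood stem cells quiescent, read 6.02, 6.07 and 5.52 in c-kit-positive cells of leukaemias 73, 75 and 79 and 6.81, 6.23 and 6.79 in those of 81, 83 and 85. The c-kit-negative values were 5.90, 5.58 and 5.82 in wild type and 5.74, 6.10 and 6.12 in the labelled knock-in. The genotype labels were apart in c-kit-positive cells and overlapped in c-kit-negative cells, where leukaemia 81 lay among the wild-type values. The difference was 0.48 over both fractions (SE 0.11; limma, adjusted p = 0.317), 0.74 in c-kit-positive cells (adjusted p = 0.185) and 0.22 in c-kit-negative cells. The highest pair of values came from the c-kit-positive cells of leukaemias 81 and 85, and between the fractions of the labelled knock-in Cdkn1c differed by 0.62 (limma, adjusted p = 0.136, and 0.0498 with the block). Without leukaemia 81 that difference was 0.40 (limma without the block, adjusted p = 0.427).

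Impact read 7.12, 7.26 and 7.25 on the c-kit-positive arrays of leukaemias 73, 75 and 79 and 6.69, 6.55 and 6.19 in those of 81, 83 and 85. The c-kit-negative values were 6.82, 6.84 and 6.78 in wild type and 6.53, 6.85 and 6.49 in the labelled knock-in. The labels were apart in c-kit-positive cells and overlapped in c-kit-negative cells, where leukaemia 83 was the highest of the 6. In c-kit-positive cells the difference was -0.73, or 1.66-fold lower in the labelled knock-in (SE 0.13; limma, adjusted p = 0.0657). It passed without leukaemia 81, at -0.84 (limma, adjusted p = 0.0311), and when the other fraction's array of leukaemia 85 was left out, which kept the difference at -0.73 (adjusted p = 0.0444). Over both fractions the difference was -0.46 (limma, adjusted p = 0.307).

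Leukaemia means did not overlap between the labels for 4 members, against 12.4% of all genes. The share of all genes with all labelled knock-in means higher was 5.63%, against 2 members, Igf2r and Cdkn1c, and with all means lower 6.76%, against 2 members, Impact and Nnat. For Nnat the separation was narrow. Its leukaemia means were 6.59, 6.78 and 6.64 in wild type and 6.58, 6.38 and 6.55 in the labelled knock-in, a difference of -0.17 (95% interval -0.38 to 0.04), and -0.11 without leukaemia 83 or -0.09 without the c-kit-negative array of 85. On the arrays, Nnat read 6.39, 6.78 and 6.64 against 6.52, 6.34 and 6.77 in c-kit-positive cells, where the labels overlapped. In c-kit-negative cells it read 6.80, 6.78 and 6.63 against 6.63, 6.42 and 6.32, where they met without overlap.

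**Figure D4:**
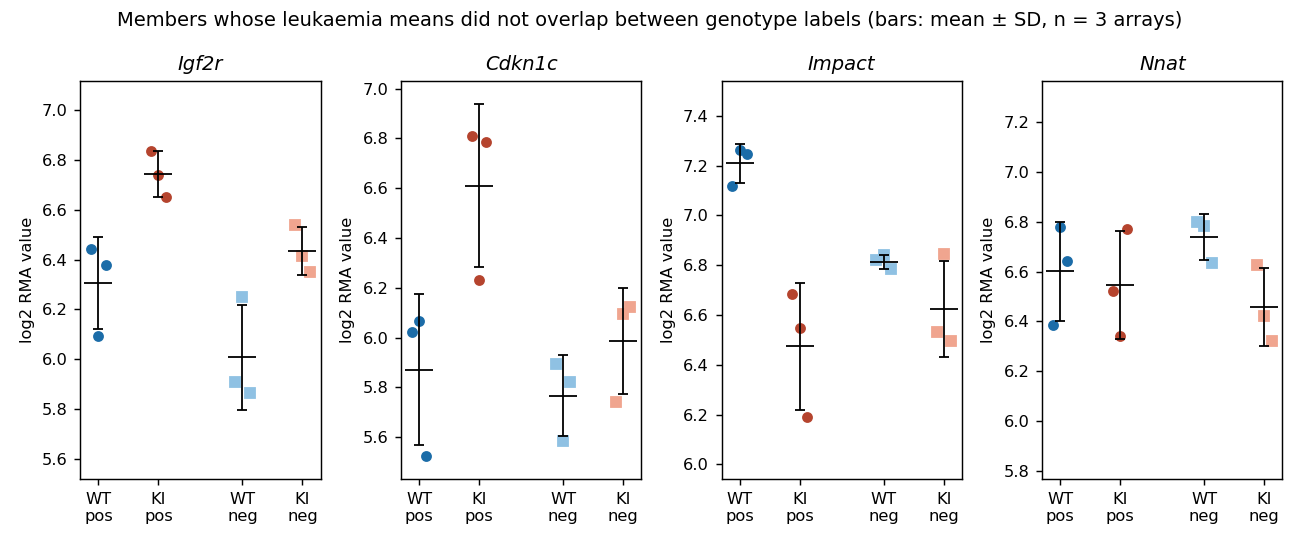
Log2 RMA values of the 4 members whose leukaemia means did not overlap between the genotype labels, by fraction (pos, neg) and label (WT wild type, KI labelled knock-in), with points for arrays and bars for the mean ± SD of 3 arrays. Igf2r is apart in both fractions, Cdkn1c and Impact are apart in c-kit-positive cells and overlap in c-kit-negative cells, and Nnat overlaps in c-kit-positive cells.

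Slc38a4, an amino acid transporter gene among the 3 members with the smallest p in c-kit-negative cells, had overlapping groups in every comparison. On c-kit-positive arrays it read 4.80, 4.87 and 4.93 in wild type and 4.72, 4.86 and 5.01 in the labelled knock-in. On c-kit-negative arrays it read 4.87, 4.78 and 4.78 in wild type and 5.02, 4.80 and 5.12 in the labelled knock-in. The c-kit-negative difference was 0.17 (95% interval -0.06 to 0.40). The late neutrophil list moved with the genotype label as well: 2 of its 12 genes, Ltf and Ly6g, rose over both fractions, against 0.018% of all genes called. The median of the list was 0.78. The 7 progenitor markers were all lower in the labelled knock-in, with 0 called by limma and a median of -0.31. At an unadjusted p under 0.05 there were 3 of them, against 7.84% of all genes. The log2 of their summed level was 11.57 to 12.005 in c-kit-positive and 11.25 to 11.39 in c-kit-negative cells of wild type, and 11.21 to 11.60 and 10.38 to 10.96 in the labelled knock-in. The part of these cells in the differences of Igf2r, Cdkn1c and Impact was not tested.

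For most members the intervals of the array signal were narrow. Over both fractions, 36 of 36 genotype intervals lay within a 2-fold change in either direction and 32 within 1.5-fold, with a median half-width of 0.21 log2 units. Among the 27 members whose array values are not listed by the naming rule, genotype differences over both fractions ran from -0.21 to 0.16, and fraction differences over both genotypes from -0.19 to 0.35. For 4 members below the table median, picked after their values were seen, the genotype difference is given as an example: for Igf2 0.02 (95% interval -0.19 to 0.23), for Grb10 0.01 (-0.19 to 0.21), for Plagl1 0.13 (-0.12 to 0.37) and for Dlk1 0.09 (-0.13 to 0.32). These 4 were below the table median on all 12 arrays. Whether their probe sets carried signal was not tested, and without signal a narrow interval does not bound a change in RNA. Of the 2 members called between the fractions, Kcnq1ot1 differed between the labels by 0.00 (-0.27 to 0.27) and Cd81 by -0.19 (-0.43 to 0.04).

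**Figure D5:**
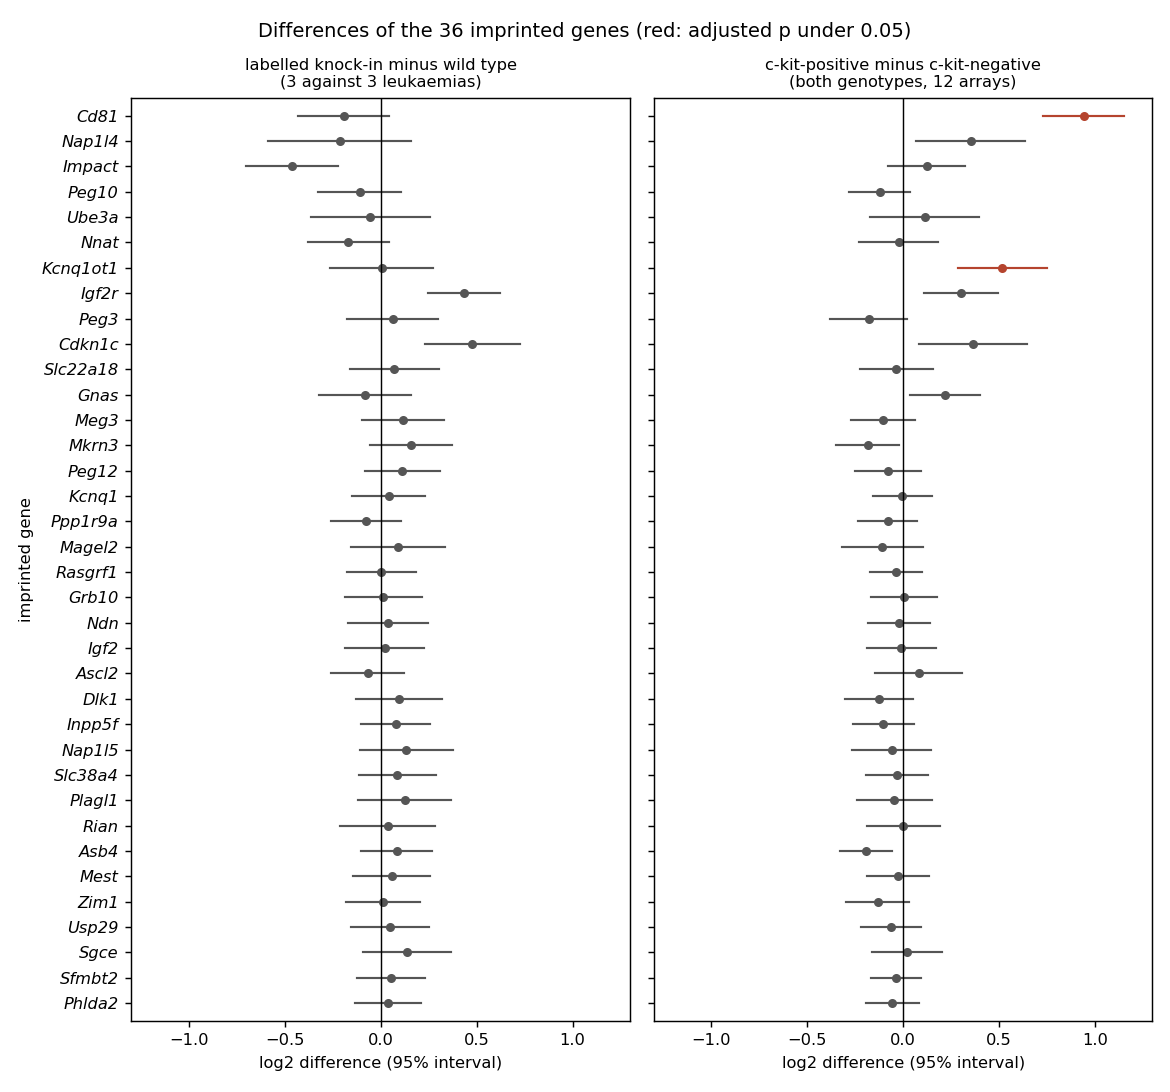
Log2 difference with its 95% interval from limma for the 36 members, ordered by level, between labelled knock-in and wild type (left) and between c-kit-positive and c-kit-negative cells (right). Red marks an adjusted p under 0.05, which holds for Cd81 and Kcnq1ot1 on the right and for 0 members on the left.

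The third comparison, the interaction, asked whether the fraction difference depended on the genotype label. Limma called 0 of the 36 members and 0% of all genes. Without the replicate block there was 1 member at an unadjusted p under 0.05, Impact, against 2.34% of all genes. Its fraction difference was 0.39 in wild type and -0.15 in the labelled knock-in, an interaction of -0.54 (95% interval -0.94 to -0.14; unadjusted p = 0.0116, adjusted p = 1.0). By leukaemia, Impact was higher in c-kit-positive cells by 0.30, 0.42 and 0.46 in 73, 75 and 79, and differed by 0.15, -0.30 and -0.30 in 81, 83 and 85. Peg12, which encodes an inhibitor of the kinase GSK3, read 5.37, 5.63 and 5.54 in the c-kit-positive and 5.94, 5.72 and 5.63 in the c-kit-negative cells of wild type. In the labelled knock-in the c-kit-positive values were 5.79, 5.88 and 5.73, and the c-kit-negative values 5.67, 5.86 and 5.59. It was lower in c-kit-positive cells in each wild-type leukaemia and higher in each leukaemia labelled knock-in, by small amounts except in leukaemia 73, and the interaction of 0.34 did not pass (limma, unadjusted p = 0.0526, adjusted p = 1.0) and was 0.18 without leukaemia 73. For Asb4 the interaction was 0.27 (unadjusted p = 0.0517) and for Cd81 -0.03 (95% interval -0.45 to 0.40). With the leukaemia as a replicate block, limma gave unadjusted p of 0.00417 for Impact, 0.0229 for Gnas, 0.0475 for Asb4 and 0.0479 for Peg12. None of them was called in that fit (limma, adjusted p = 0.786, 0.833, 0.884 and 0.884). The share of all genes at an unadjusted p under 0.05 was not counted for it.

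By the parental origin usually given, 14 measured members were classed as maternally and 20 as paternally expressed, and Gnas and Ube3a as tissue-specific. The class is not specific to blood cells. Whether any member was expressed from a single parental copy in these cells was not measured. Over both fractions 10 of 14 maternally expressed members were positive for the genotype label, with a median of 0.04, and 17 of 20 paternally expressed members, with a median of 0.06. Of all 22180 genes, 12216 were positive, and of the 12501 above the table median, 5919. Genes below the median were thus more often positive than those above it. Among members below the table median 19 of 21 were positive, and among those above it 8 of 15. Between the fractions 7 of 14 and 3 of 20 were positive, with medians of -0.0015 and -0.04, and 1 of each was called, Cd81 and Kcnq1ot1. Of all genes, 8790 were positive between the fractions, and of the 12501 above the table median, 6260. Genes below the median were thus more often negative, and the sign counts of members were not compared at matched level. Of the 21 members below the table median, 17 were negative between the fractions, in a range from -0.19 to 0.08.

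For 3 members the array had a second probe set of the same symbol. Those of Ube3a differed in sign between the fractions, at 0.11 for the probe set used and -0.16 for the other, and for the genotype label, at -0.06 and 0.07. For Plagl1 and Nnat the second probe set was dimmer, at 3.31 and 3.41, and gave genotype differences of 0.08 and -0.09.

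Beyond the 36 members, 34 other imprinted genes and close neighbours of imprinted clusters were measured, from a list of 41. Between the fractions 2 were called and both were higher in c-kit-positive cells: Tspan32, described with the Kcnq1 cluster, and Jade1, a subunit of histone acetyltransferase complexes, at 0.38 (limma, adjusted p = 0.0238). The 2 of 34 stand against 6.75% of all genes. With the block 4 were called, all higher, against 16.7% of all genes. For the genotype label 0 were called by limma over both fractions, where 0 also had an unadjusted p under 0.05, and the median was 0.04.

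Genes that place, keep, read or remove DNA methylation or silent chromatin formed the other list, of which 34 of 35 were measured and 30 lay above the table median. Between the fractions 6 rose in c-kit-positive cells and 0 fell, against 6.75% of all genes called, of which 1061 were higher and 437 lower. Of the 12501 genes above the table median, 1361 were called, 1000 of them higher and 361 lower. The 6 included Dnmt1, the maintenance methyltransferase, at 0.80 (limma, adjusted p = 0.0275), and Uhrf1, which brings it to newly copied DNA, at 0.81 (adjusted p = 0.0084). Trim28, the corepressor recruited by ZFP57, differed by 0.49 (adjusted p = 0.0358), and the heterochromatin protein gene Cbx5 by 0.75 (adjusted p = 0.0425). The Polycomb genes Suz12 and Ezh2 differed by 0.85 (adjusted p = 0.00678) and 0.71 (adjusted p = 0.0354). With the block 15 of the 34 were called, all higher, against 16.7% of all genes. For the genotype label 0 of the 34 were called by limma over both fractions, with 3 at an unadjusted p under 0.05, among them Tet1 at 0.38 and Tet2 at -0.53, genes of enzymes that oxidise methylcytosine (adjusted p = 0.412 and 0.417).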

How the data were processed

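Sorted cells of 6 MLL-AF9 leukaemias gave 12 arrays. Per the submitters' processing notes, the authors made the deposited log2 values with RMA in Affymetrix Expression Console; versions are not given in the sources used here. RMA normalizes arrays toward a common distribution, which can hide a shift shared by most genes. The medians of the deposited arrays still ran from log2 5.56 to 5.71. Values were used as deposited for 41345 probe sets; the annotation, which can be old, gave 23521 of them 1 symbol and 1814 several, and 16010 were not listed. The probe set with the highest mean was kept for each of 22180 genes, with no expression filter.

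Limma (version 3.58.1, R 4.3.3) was fitted to 12 arrays with 4 group means. The genotype comparison over both fractions used leukaemia means, 3 against 3. Tests were two-sided, with Benjamini-Hochberg adjustment over all genes and a threshold of 0.05. The scripts were tested on simulated data. Within-group deviations of both fractions of a leukaemia correlated at 0.259 to 0.587, every pair above 0.1, and the shared number in the titles pairs them, so an alternative fit took the leukaemia as a block.

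Array values are given for members past the threshold, members without overlap of leukaemia means between genotype labels, the 3 members with the smallest p in each comparison, and any with a range of at least 2 log2 units, of which there were 0. Of the lists, called genes and up to 3 with the smallest p are named; others named beside them were chosen after their values were seen. Members and lists were chosen with earlier results of these data known.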

Additional observations from a re-analysis of the deposited data

How the results depend on the processing

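Of 22 results for single members, 298 values were recomputed under the alternatives: 283 kept their direction and side of the threshold, 10 passed newly, 5 no longer passed and 0 changed direction. With the leukaemia as a replicate block the members called rose from 1 to 7 in wild type, from 1 to 3 in the labelled knock-in and from 2 to 5 over both genotypes between the fractions, and stayed at 0 for the genotype label and the interaction. Leaving out each leukaemia in turn gave 0 to 2 members between the fractions in wild type, 0 to 1 in the labelled knock-in, 1 to 2 over both genotypes, 0 to 1 for the genotype label in c-kit-positive cells, and 0 for the genotype label in c-kit-negative cells, over both fractions and for the interaction. When the c-kit-negative array of leukaemia 85 was left out, an alternative chosen after seeing the data, 1 member, Impact, was called for the genotype label in c-kit-positive cells. A fit on only the 6 wild-type arrays called 2 between the fractions, Cd81 and Impact. Repeated quantile normalization called 3 over both genotypes, adding Igf2r. The filter on low values, which tested 19152 genes, centring on array medians, an intensity trend and the mean of all probe sets kept every count of called members within 1.5 times. The number of members above the median was 15, and 14 with the median over genes or the mean of all probe sets. The cause of these changes was not tested. With 3 leukaemias a group, the number of arrays limits the precision.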
